A study of Rattus norvegicus with 12 samples.

Results

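The potassium channel genes of rat kidney cortex were examined as every probe set that the array annotation pairs with a single gene whose symbol starts with Kcn. There were 126 such probe sets for 75 genes, of 31042 probe sets and 14217 named genes on the array after control probe sets were left out. A probe set is a group of short probes that reports the transcript level as 1 fluorescence signal. Probe sets in the lowest 40% by mean log2 signal were not tested, which put the limit at a geometric mean of 70.9. Of the Kcn probe sets, 29 passed it, covering 25 genes, and 97 did not. For 50 genes no probe set passed.

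Cortex came from male littermate rats in 4 groups with 3 arrays each. Diabetic (DM) rats had received streptozocin, a toxin of insulin-producing beta cells, at 65 mg/kg intravenously when 4 or 14 weeks old, and an insulin palmitate pellet 3 days later. Nondiabetic (ND) rats had received the vehicle and a vehicle pellet. All had free access to food and water, and tissue was taken after 6 weeks, at 10 or 20 weeks of age. The sample labels give a blood glucose of 350 to 450 mg/dl in diabetic rats. Streptozocin and the insulin pellet went only with diabetes, so their effects and that of diabetes cannot be told apart. The label of 10-week diabetic replicate 1 names a vehicle pellet, and 20-week nondiabetic replicate 1 had the highest 3'/5' ratio of the Gapdh control, 2.09, a measure that rises as RNA degrades. These arrays are called the doubted arrays. The beta-actin ratio was highest in another array, 20-week diabetic replicate 2, at 11.4, with 11.2 in 20-week nondiabetic replicate 1, so doubt about RNA quality is not settled by the Gapdh ratio. Which rat gave which array is not in the labels, so p-values cover only the spread between samples, which may be technical.

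Potassium channels let potassium leave the cell and hold the membrane voltage negative. In the proximal tubule that voltage helps to drive the uptake of sodium with glucose and amino acids. In the distal nephron, channels of the apical membrane secrete potassium into urine, and channels of the basolateral membrane return potassium that the sodium pump has brought in. Pore subunits form the channel, as inward rectifiers (Kcnj), two-pore domain channels (Kcnk), voltage-gated channels (Kcna to Kcnh, Kcnq, Kcns, Kcnv) and channels opened by calcium or sodium (Kcnma1, Kcnn, Kcnt). Accessory subunits (Kcne, Kcnab, Kcnip, Kcnmb) alter gating or transport of the pore.

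Kcne1 and Kcnk5 were called lower in diabetic rats in the test over both ages, so the promoters of both genes are shown. They are the RefSeq sequences of the GRCr8 build, from 250 bases before to 50 bases after the gene start, 5′ to 3′ on the strand of the gene. Kcne1 lies at chr11:45076984-45077283 on the minus strand and Kcnk5 at chr15:4171375-4171674 on the plus strand. Capitals mark matches on either strand to the GC box (GGGCGG), the E-box (CACGTG), the CCAAT box (CCAAT) and the TATA box (TATAAA).
Kcne1: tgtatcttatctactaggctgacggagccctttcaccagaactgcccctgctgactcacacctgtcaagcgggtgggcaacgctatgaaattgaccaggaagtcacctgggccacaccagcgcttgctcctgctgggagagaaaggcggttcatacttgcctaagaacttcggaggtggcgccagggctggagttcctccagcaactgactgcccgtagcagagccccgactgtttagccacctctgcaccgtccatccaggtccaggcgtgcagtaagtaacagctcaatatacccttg
Kcnk5: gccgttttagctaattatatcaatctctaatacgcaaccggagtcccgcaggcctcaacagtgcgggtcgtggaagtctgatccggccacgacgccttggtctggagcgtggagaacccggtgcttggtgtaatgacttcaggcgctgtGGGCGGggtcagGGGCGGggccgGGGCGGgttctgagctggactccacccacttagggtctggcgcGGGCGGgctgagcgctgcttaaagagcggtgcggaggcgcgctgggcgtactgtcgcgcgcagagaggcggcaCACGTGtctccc
The Kcnk5 window held 4 GC boxes and 1 E-box. The Kcne1 window held 0 matches to the 4 motifs, which says only that these letters are not in it. Of 33469 rat promoters of this length, 33.1% held a GC box, 6.42% an E-box, 37.5% a CCAAT box and 14.2% a TATA box.

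The classes differed in how many members passed the signal limit. Of the inward rectifiers 11 of 26 probe sets passed, for 9 of 15 genes. Of the voltage-gated pore subunits 4 of 49 passed, for 4 of 31 genes. The accessory subunits had 6 of 26, the two-pore domain channels 4 of 16 and the calcium- or sodium-activated pore subunits 4 of 9. Of the 29 tested probe sets, 23 had a geometric mean signal under 300, and 6 lay above it, for Kcnj15, Kcnj16 (2 probe sets), Kcnk5, Kcnj1 and Kcnq1. Kcnj15 (Kir4.2) and Kcnj16 (Kir5.1) are inward rectifier subunits of basolateral tubule membranes, Kcnj1 (ROMK) is the apical secretory channel of the thick ascending limb and collecting duct, and Kcnq1 is the pore that Kcne1 joins. Signals of different probe sets depend on their probes and are not compared as transcript amounts.

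**Figure D1:**
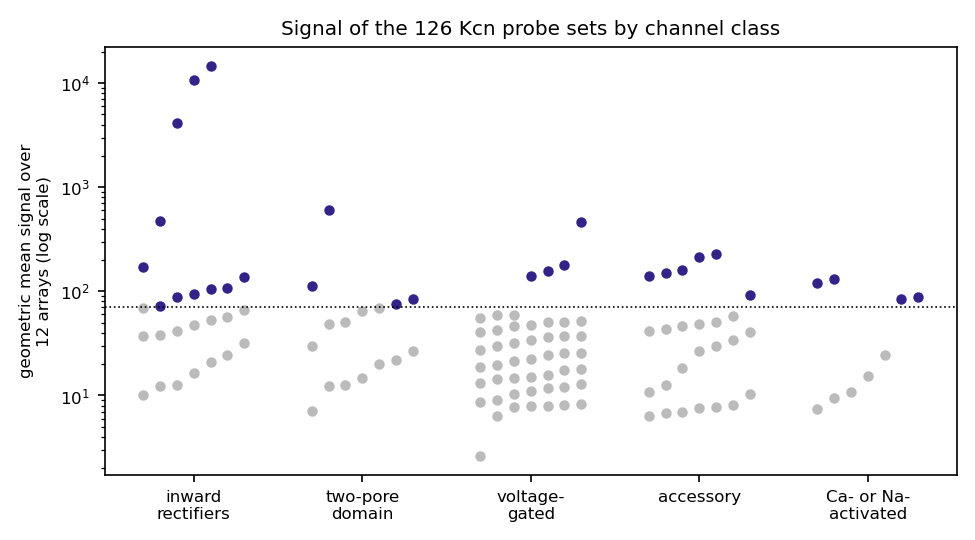
Geometric mean signal over 12 arrays (log axis) of the 126 Kcn probe sets, 1 point each, by channel class; grey points lie below the dotted limit of 70.9 and were not tested. The 49 voltage-gated probe sets have 4 points above the limit and the 26 inward rectifier probe sets have 11.

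Just inside the limit were Kcnj15 (1369508_at) at 72.1 and Kcnk6 (1387264_at) at 75.4, and just outside were Kcnk6 (1370776_a_at) at 69.1 and Kcnj3 (1369741_at) at 68.6. Several genes known from the renal tubule or renal vessels had no probe set above it. Kcnj10 (Kir4.1), the basolateral partner of Kcnj16 in the distal convoluted tubule, had a geometric mean of 24.5 and ranged from 3.02 to 95.8 over the 12 arrays. Kcne2 had 3 probe sets at 50.7, 8.07 and 7.69, and Kcne3 had 2 at 43.2 and 30.1. Kcna1, a voltage-gated channel of the distal convoluted tubule, stood at 8.32. Kcnmb1, an accessory subunit of the calcium-activated channel of smooth muscle, stood at 18.4, and Kcnn4, a calcium-activated channel, at 15.4. The other probe sets of Kcnj11 stood at 47.9 and 31.8 and those of Kcnma1 at 10.8 and 7.40. Kcna10 was not among the annotated probe sets.

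Differences were tested in a linear model of 4 group means with limma, with p-values adjusted (Benjamini-Hochberg) over all 18625 probe sets tested. A probe set was called at an adjusted p under 0.05. Log2 differences are diabetic minus nondiabetic, with the standard error (SE) of the model. "Over both ages" is the mean of the differences at 10 and at 20 weeks, so these 3 comparisons share arrays and are not independent.

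Over both ages, Kcne1 and Kcnk5 were called lower and no Kcn probe set was called higher. Thus 2 of 29 (6.9%) were called, both lower, where 4.47% of all probe sets tested were called and 2.34% were called lower. For 7 Kcn probe sets (24.1%) the unadjusted p was under 0.05, against 17.9% of all probe sets. The groups did not overlap at either age, in the same direction, for 4 Kcn probe sets, 1 higher and 3 lower. The share over all probe sets was 4.71%. The log2 difference was below 0 for 21 of 29, with a median of -0.10, against 52.4% and -0.01 over all probe sets tested. With both doubted arrays left out it was below 0 for 16 of 28.

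Kcne1 encodes a small single-pass subunit that slows and enlarges the current of Kcnq1, and in the kidney it is known from the proximal tubule. Its signal was 346, 305 and 215 in 10-week nondiabetic rats and 101, 67.7 and 164 in 10-week diabetic rats. Its 20-week signals were 137, 247 and 281 in nondiabetic and 46.5, 66.8 and 89.4 in diabetic rats. Every diabetic array was below every nondiabetic array of its age. The group means were 289 ± 67.0 (SD, n = 3) and 111 ± 49.0 at 10 weeks and 221 ± 75.3 and 67.6 ± 21.4 at 20 weeks.

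Over both ages Kcne1 fell 2.97-fold (log2 -1.57 ± 0.26 SE, 95% interval -2.14 to -0.999, limma adjusted p = 0.00484). With both doubted arrays left out the difference was -1.72 ± 0.28 (limma adjusted p = 0.0122). In the 20-week groups it gave -1.70 ± 0.37 (limma adjusted p = 0.0322), and at 10 weeks -1.45 ± 0.37, which was not called (limma adjusted p = 0.162). The difference between the ages was -0.25 ± 0.53 (interaction, limma adjusted p = 0.93). Of the 6 diabetic signals, 3 lay below the limit of 70.9, so the size of the fall is uncertain. The call at 20 weeks was lost when 20-week nondiabetic replicate 2 (log2 -1.59, limma adjusted p = 0.113) or replicate 3 (-1.49, 0.0886) was left out, and when 20-week diabetic replicate 1 (-1.45, 0.101), replicate 2 (-1.71, 0.0908) or replicate 3 (-1.92, 0.0522) was.

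Kcnq1, the pore subunit that Kcne1 joins, had signals of 508, 468 and 415 in nondiabetic and 465, 475 and 407 in diabetic rats at 10 weeks. At 20 weeks it gave 444, 492 and 499 in nondiabetic and 476, 367 and 537 in diabetic rats. The groups overlapped at both ages. The difference over both ages was -0.06 ± 0.10 with a 95% interval of -0.29 to 0.17. The interval of Kcne1 lies wholly below that of Kcnq1, but the difference between the genes was not tested.

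Kcnk5 (TASK-2) is a two-pore domain channel opened by alkaline pH and known from the basolateral membrane of proximal tubule cells. Its signal was 731, 677 and 684 in 10-week nondiabetic and 486, 648 and 420 in 10-week diabetic rats. The 20-week signals were 735, 637 and 958 in nondiabetic and 490, 511 and 507 in diabetic rats. No diabetic array reached a nondiabetic array of its age. The means were 697 ± 29.2 (SD, n = 3) and 518 ± 117 at 10 weeks, and 777 ± 164 and 502 ± 11.2 at 20 weeks.

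Over both ages Kcnk5 fell 1.44-fold (log2 -0.53 ± 0.12, 95% interval -0.79 to -0.27, limma adjusted p = 0.0245). At 10 weeks the difference was -0.45 ± 0.17 (limma adjusted p = 0.332), and at 20 weeks -0.61 ± 0.17 (limma adjusted p = 0.0762), neither of them called. The call over both ages was close to the threshold. With both doubted arrays left out the difference was -0.53 ± 0.14 and not called (limma adjusted p = 0.0858). The call also went without 10-week nondiabetic replicate 1 (limma adjusted p = 0.0593) or 2 (0.0506), 10-week diabetic replicate 1 (0.0575) or 3 (0.0551), and 20-week diabetic replicate 1 (0.0545), 2 (0.0502) or 3 (0.0533). In these refits the log2 difference lay between -0.54 and -0.46. Without 10-week diabetic replicate 2, the 20-week difference of -0.61 was called (limma adjusted p = 0.046).

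Markers of the proximal tubule, where both genes are known, were measured beside them. None of 8 passed the test over both ages, with a median log2 difference of 0.04. They moved both ways, 4 above and 4 below 0, and 3 of the 8 (37.5%, against 17.9% of all probe sets) had an unadjusted p under 0.05: Slc5a2 at -0.35, Cubn at 0.16 and Slc5a12 at 0.32. Their summed signal ran from 95839 to 104695 in 10-week nondiabetic and 93615 to 111823 in 10-week diabetic rats, and from 93891 to 108339 and 99296 to 105832 at 20 weeks. The ranges overlapped at both ages. In bulk cortex, fewer cells of a type and less RNA per cell cannot be told apart.

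**Figure D2:**
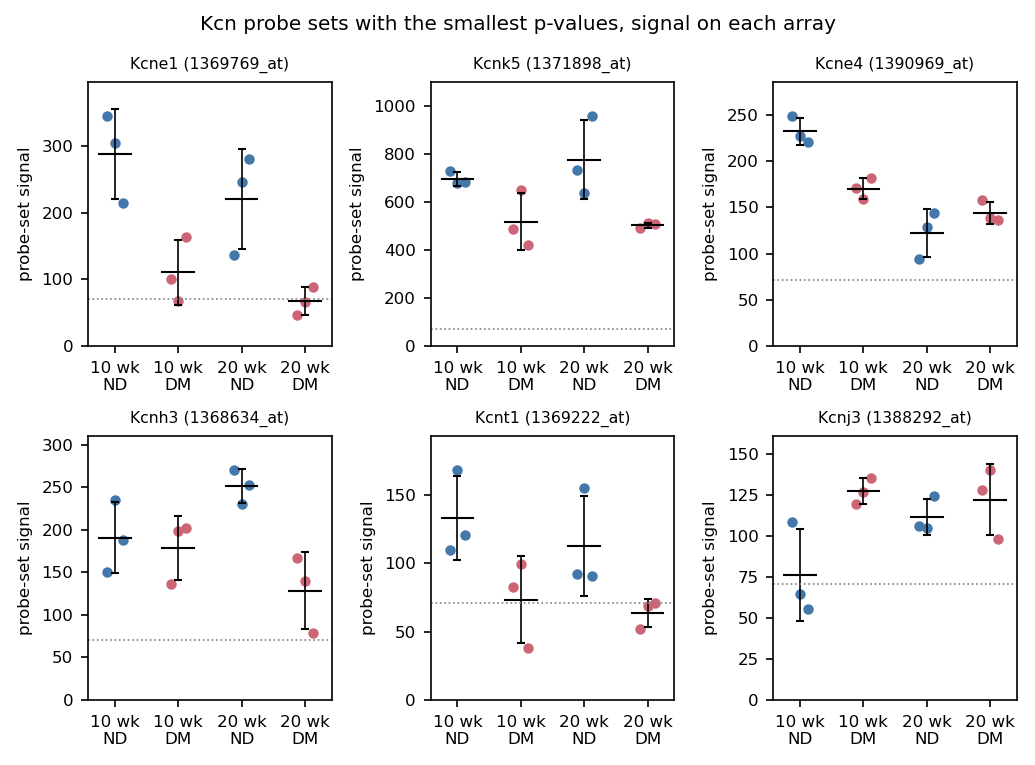
Signal on each array (linear axes from 0) of 6 Kcn probe sets, as points, with group mean and SD as bars; ND and DM at 10 and 20 weeks (wk), 3 arrays each, and the dotted line at 70.9 is the limit for testing. Kcne1, Kcnk5 and Kcnt1 (1369222_at, not called) have all diabetic points below all nondiabetic points of their age. Kcne4 lies between 221 and 249 in 10-week and between 93.9 and 144 in 20-week nondiabetic rats.

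At 10 weeks, 0 of 29 Kcn probe sets were called by limma, and 6 (20.7%) had an unadjusted p under 0.05. Over all probe sets 0.306% were called and 2021 (10.9%) had an unadjusted p under 0.05. The groups did not overlap for 7 Kcn probe sets, 2 higher and 5 lower (24.1%), where the share over all probe sets was 17%. After Kcne1 the smallest p among Kcn probe sets belonged to Kcnj3 (GIRK1), a subunit of G protein-gated inward rectifiers known from heart and brain.

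Kcnj3 (1388292_at) gave 108, 64.4 and 55.7 in nondiabetic and 120, 127 and 135 in diabetic rats at 10 weeks. All 3 diabetic arrays were higher (log2 0.80 ± 0.28, limma adjusted p = 0.293), and 2 of the nondiabetic signals lay below 70.9. Its signals at 20 weeks were 106, 105 and 124 in nondiabetic and 128, 140 and 98.1 in diabetic rats, which overlapped. Kcns3, a silent modulatory subunit of voltage-gated channels, had a difference of -0.58 ± 0.26 at 10 weeks (limma adjusted p = 0.44).

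At 20 weeks, 1 of 29 Kcn probe sets (3.45%) was called, Kcne1, lower. Over all probe sets 2.84% were called and 1.62% were called lower. An unadjusted p under 0.05 was found for 4 Kcn probe sets (13.8%), against 16.8% of all probe sets. The groups did not overlap for 6 Kcn probe sets, 2 higher and 4 lower (20.7%), where the share over all probe sets was 20.9%. Kcnh3, a voltage-gated channel of the ether-a-go-go family known from brain, had the next smallest p among them. It gave 270, 230 and 252 in nondiabetic and 166, 140 and 78.2 in diabetic rats, all 3 lower (log2 -1.04 ± 0.28, limma adjusted p = 0.0738). At 10 weeks Kcnh3 gave 150, 234 and 188 in nondiabetic and 136, 198 and 202 in diabetic rats, a difference of -0.10 ± 0.28. Of 5 neuronal marker genes, 0 were above the signal limit. Which cells gave the Kcnh3 signal was not tested.

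Kcnt1 (Slack), a sodium-activated channel, had 3 tested probe sets. The probe set 1369222_at gave 110, 168 and 121 in nondiabetic and 82.8, 99.3 and 38.3 in diabetic rats at 10 weeks. Its 20-week signals were 92.0, 155 and 90.9 in nondiabetic and 52.1, 68.6 and 70.8 in diabetic rats. The groups did not overlap at either age, and 4 of the 6 diabetic signals lay below the limit. Its difference over both ages was -0.86 ± 0.26 (limma adjusted p = 0.0921), not called. The other probe sets of Kcnt1 gave -0.37 ± 0.19 (1395102_at) and -0.02 ± 0.23 (1379147_at), so the 3 disagreed in size.

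**Figure D3:**
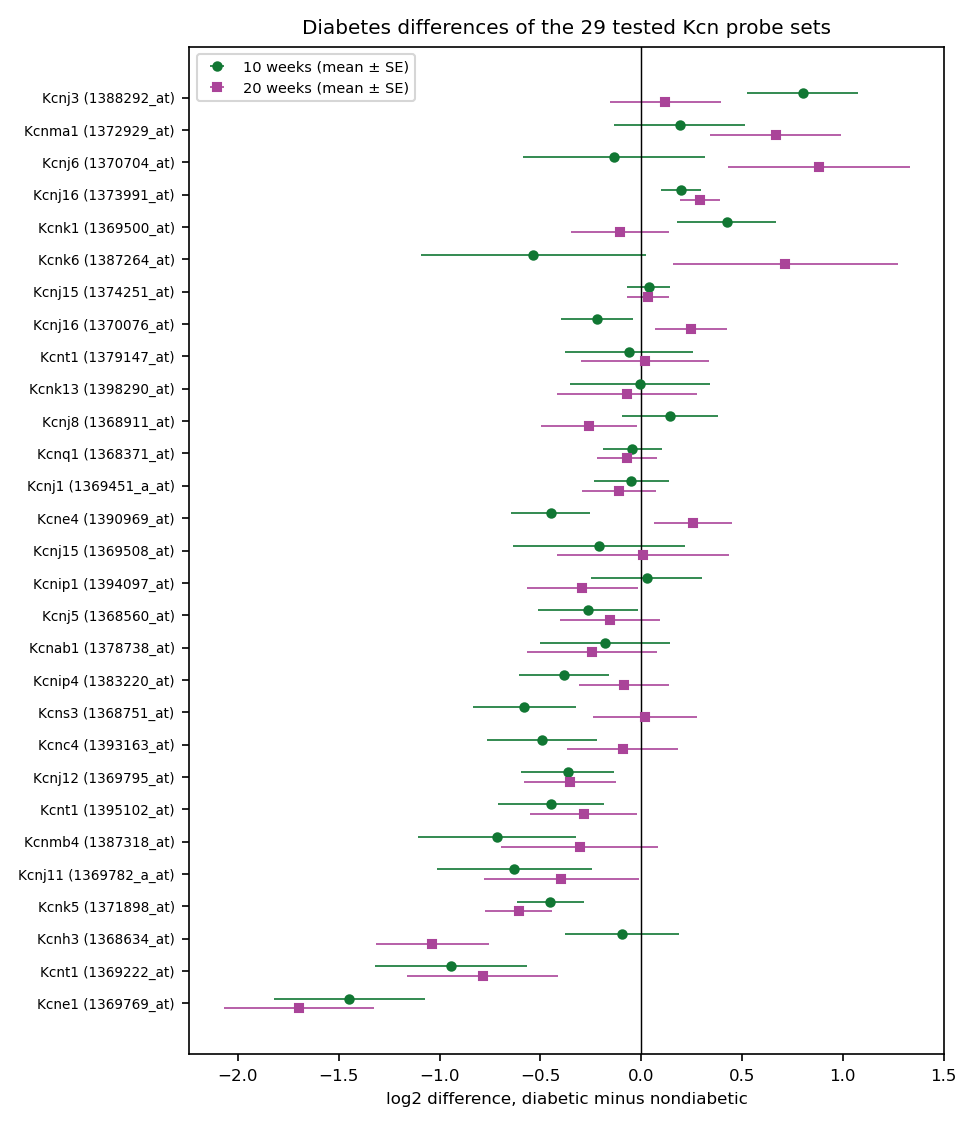
Log2 difference, diabetic minus nondiabetic, of the 29 tested Kcn probe sets at 10 weeks (circles) and 20 weeks (squares), with bars of 1 SE, ordered by the mean over both ages. Kcne1 lies lowest at -1.45 and -1.70, and the 2 Kcnj16 probe sets lie on opposite sides of 0 at 10 weeks (0.20 and -0.22).

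Among the inward rectifiers, 0 of 11 probe sets were called in any of the 5 comparisons by limma. Over both ages 3 (27.3%, against 17.9% of all probe sets) had an unadjusted p under 0.05. Of the 11 differences, 5 lay above 0 and 6 below, with a median of -0.06 that turned to 0.06 with both doubted arrays left out. Kcnj16 joins Kcnj10 or Kcnj15 to form basolateral channels. Its probe set 1373991_at gave 9739, 9234 and 9428 in nondiabetic and 10224, 12676 and 9889 in diabetic rats at 10 weeks. In the 20-week groups it gave 9898, 9515 and 10681 in nondiabetic and 11957, 13637 and 11286 in diabetic rats. Diabetic arrays were higher than all nondiabetic arrays of their age, but the difference over both ages, 0.24 ± 0.07 (95% interval 0.09 to 0.40), was not called (limma adjusted p = 0.0741).

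The other probe set of Kcnj16, 1370076_at, gave 4716, 4453 and 4242 in nondiabetic and 3364, 3783 and 4441 in diabetic rats at 10 weeks. At 20 weeks it gave 3346, 3526 and 4631 in nondiabetic and 4090, 3607 and 6188 in diabetic rats. These overlapped, with a difference over both ages of 0.01 ± 0.13 (95% interval -0.26 to 0.29). The intervals of the 2 Kcnj16 probe sets over both ages overlapped, and the difference between the probe sets was not tested. For 1373991_at and 1370076_at the differences were 0.20 ± 0.10 and -0.22 ± 0.18 at 10 weeks. At 20 weeks they were 0.29 ± 0.10 and 0.25 ± 0.18.

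Kcnj15 (1374251_at) gave 13608, 14897 and 13670 in nondiabetic and 12861, 15613 and 14885 in diabetic rats at 10 weeks. The 20-week signals were 14614, 12564 and 16572 in nondiabetic and 13814, 15812 and 14939 in diabetic rats. All groups overlapped, and the difference over both ages was 0.03 ± 0.07 (95% interval -0.13 to 0.20). The dim probe set of Kcnj15 (1369508_at) gave -0.10 ± 0.30 (95% interval -0.76 to 0.55), which leaves changes of either sign within its interval.

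Kcnj1 gave 578, 513 and 525 in nondiabetic and 499, 511 and 552 in diabetic rats at 10 weeks. Its signals at 20 weeks were 317, 537 and 533 in nondiabetic and 472, 417 and 367 in diabetic rats. The lowest signal, 317, was that of the doubted 20-week nondiabetic replicate 1. The difference over both ages was -0.08 ± 0.13 (95% interval -0.36 to 0.20), and -0.19 ± 0.10 with both doubted arrays left out (limma adjusted p = 0.377).

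**Figure D4:**
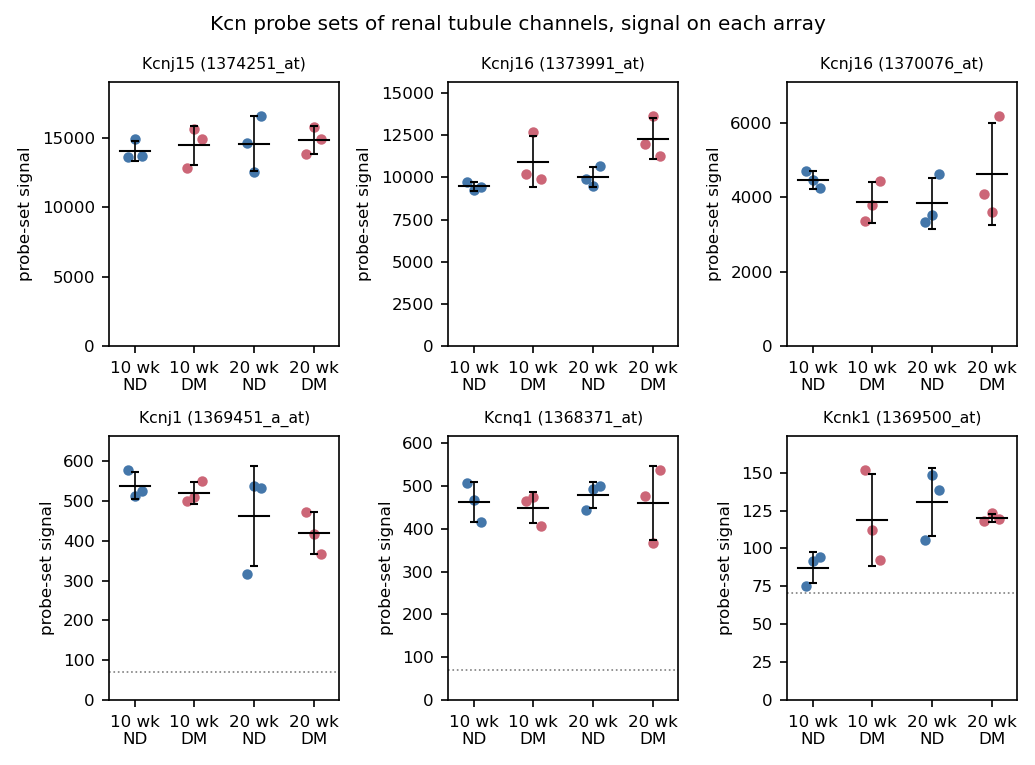
Signal on each array (linear axes from 0) of 6 probe sets of channels known from the renal tubule, as points, with group mean and SD as bars; ND and DM at 10 and 20 weeks (wk), 3 arrays each, and the dotted line at 70.9 in 3 panels. The Kcnj16 probe set 1373991_at has all diabetic points above the nondiabetic points of their age, and the other 5 overlap at 1 age or more.

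Kcnj8 (Kir6.1) and Kcnj11 (Kir6.2) form the pore of ATP-sensitive potassium channels, Kcnj8 mainly in vessels. Kcnj8 gave 125, 118 and 168 in nondiabetic and 122, 176 and 155 in diabetic rats at 10 weeks. Its 20-week signals were 189, 138 and 119 in nondiabetic and 129, 115 and 122 in diabetic rats. The groups overlapped at both ages, with a difference over both ages of -0.06 ± 0.17 (95% interval -0.42 to 0.31). Kcnj11 (1369782_a_at) ranged from 39.7 to 126 over the arrays and gave -0.51 ± 0.27 (limma adjusted p = 0.359). Kcnj12 (Kir2.2), a strong inward rectifier, gave -0.36 ± 0.16 (limma adjusted p = 0.27). Kcnj5 (GIRK4) gave -0.21 ± 0.18, and Kcnj6 (GIRK2) 0.37 ± 0.32.

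Of the 4 two-pore domain probe sets, Kcnk5 was called and the other 3 were not, with a median over the 4 of 0.03. Without both doubted arrays 3 were tested and the median was -0.01. Kcnk1 (TWIK-1), known from tubule cells, gave 75.5, 91.9 and 94.2 in nondiabetic and 152, 112 and 92.5 in diabetic rats at 10 weeks. In the 20-week groups it gave 106, 148 and 139 in nondiabetic and 118, 123 and 120 in diabetic rats. These overlapped at both ages (over both ages 0.16 ± 0.17). Kcnk6 (TWIK-2, 1387264_at) ranged from 21.2 to 139, and its difference of 0.09 ± 0.40 had the widest interval of the members tested, -0.77 to 0.95. Kcnk13 gave -0.04 ± 0.25.

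The 6 accessory subunit probe sets all had a log2 difference below 0 over both ages, with a median of -0.22, and 1, Kcne1, was called. With both doubted arrays left out 4 of the 6 lay below 0. Kcnmb4, an accessory subunit of the calcium-activated channel, gave -0.51 ± 0.28. Kcnip4 and Kcnip1, calcium-binding partners of voltage-gated channels, gave -0.23 ± 0.16 and -0.13 ± 0.19, and Kcnab1, a beta subunit of such channels, -0.21 ± 0.23. Among these 4 no adjusted p was under 0.37. The 4 voltage-gated pore subunits (Kcnh3, Kcns3, Kcnc4 and Kcnq1) also all lay below 0, with a median of -0.29 and 0 called by limma. Of these 4, 1 (25%, against 17.9% of all probe sets) had an unadjusted p under 0.05.

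Kcnma1, the pore of the large-conductance calcium-activated channel that secretes potassium when tubule flow is high, had 1 tested probe set. It gave 172, 78.9 and 78.2 in nondiabetic and 123, 96.0 and 134 in diabetic rats at 10 weeks. At 20 weeks it gave 130, 79.7 and 108 in nondiabetic and 135, 191 and 174 in diabetic rats. At 20 weeks all diabetic arrays were higher, but the difference of 0.67 ± 0.33 was not called (limma adjusted p = 0.324). Smooth muscle, which also expresses Kcnma1, had markers with a summed signal of 1974 to 2512 in 20-week nondiabetic and 2353 to 3047 in 20-week diabetic rats. The markers did not move together at 20 weeks: the difference was 0.94 for Tagln and 0.18 for Pdgfrb, but -0.51 for Myh11, -0.26 for Acta2 and -0.39 for Rgs5. Their median was -0.26 and 0 of 5 were called by limma, with an unadjusted p under 0.05 for 2 (40%, against 16.8% of all probe sets). Their part in the Kcnma1 difference was not tested.

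In the comparison of 20 with 10 weeks in nondiabetic rats, 0 of 29 Kcn probe sets and 0% of all probe sets were called by limma. An unadjusted p under 0.05 was found for 3 Kcn probe sets (10.3%) and 1603 of all (8.61%). The groups did not overlap for 3 Kcn probe sets (10.3%), 1 higher and 2 lower, where the share over all probe sets was 12.1%. Over diabetic and nondiabetic arrays together, the means of both control ratios of RNA quality also differed, 20 minus 10 weeks, by log2 0.20 for Gapdh (exact permutation p = 0.013, 6 against 6 arrays) and 0.36 for beta-actin (exact permutation p = 0.0368). Adjusted over the 4 such tests, the p-values were 0.0519 and 0.0736. In nondiabetic rats alone the Gapdh ratios overlapped, at 1.43, 1.46 and 1.41 at 10 weeks and 2.09, 1.42 and 1.54 at 20 weeks. Their part in the age differences was not tested for single genes beyond a fit with the Gapdh ratio.

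Kcne4, an accessory subunit that inhibits some voltage-gated channels, had the smallest p of the Kcn probe sets in that comparison. It gave 249, 227 and 221 in 10-week and 93.9, 129 and 144 in 20-week nondiabetic rats. All 20-week signals were lower (log2 -0.95 ± 0.19, limma adjusted p = 0.30), but the difference was not called. It was -0.73 in the fit with the Gapdh ratio as a covariate (limma adjusted p = 0.441) and -0.77 with both doubted arrays left out (limma adjusted p = 0.586). In diabetic rats Kcne4 gave 170, 159 and 182 at 10 weeks and 158, 138 and 136 at 20 weeks. The diabetes difference was -0.45 ± 0.19 at 10 weeks and 0.26 ± 0.19 at 20 weeks. It shares the nondiabetic arrays with the age comparison.

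The interaction, the 20-week diabetes difference minus the 10-week one, was called for 0 Kcn probe sets and for 0% of all probe sets by limma. An unadjusted p under 0.05 was found for 2 Kcn probe sets (6.9%) and 1480 of all (7.95%). They were Kcne4 (0.71 ± 0.28, limma adjusted p = 0.558) and Kcnh3 (-0.94 ± 0.40, limma adjusted p = 0.599). Next were Kcnj16 (1370076_at), Kcnj3 and Kcns3, at 0.47 ± 0.25, -0.68 ± 0.39 and 0.60 ± 0.36. In the age comparison, Kcnk1 (0.58 ± 0.25), Kcnj3 (0.61 ± 0.28), Kcnip1 (0.47 ± 0.27) and Kcnk6 (1387264_at, -0.84 ± 0.56) followed Kcne4, with adjusted p between 0.56 and 0.677.

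Other genes of renal potassium handling were taken from a list of 33, of which 28 had a probe set and 27 were tested. Over both ages 1 was called higher and 1 lower (7.41%, against 4.47% of all probe sets), with a median of -0.01. In the other 4 comparisons 0 were called by limma, with unadjusted p under 0.05 for 6 in 10-week rats, 7 in 20-week rats, 2 for the interaction and 2 for age. These are 22.2%, 25.9%, 7.41% and 7.41% of the list, against 10.9%, 16.8%, 7.95% and 8.61% of all probe sets. Fxyd4, a regulator of the sodium pump in the collecting duct, gave 302, 303 and 359 in nondiabetic and 742, 441 and 640 in diabetic rats at 10 weeks. The 20-week signals were 434, 531 and 326 in nondiabetic and 751, 686 and 599 in diabetic rats, with no overlap at either age. It rose over both ages (log2 0.78 ± 0.15, limma adjusted p = 0.00914). Of 5 principal cell markers, 2 (Aqp2 and Aqp4) were also called higher, and the summed signal of the 5 ran from 7495 to 9129 in nondiabetic and 9755 to 13239 in diabetic rats at 10 weeks. The ranges at 20 weeks were 7255 to 8295 and 8865 to 10120. The other principal cell markers gave 0.04 for Aqp3, -0.01 for Scnn1g and -0.20 for Avpr2 over both ages, and the median of the 5 was 0.04. At 20 weeks 3 of the 5 lay below 0, and Scnn1g was lower on every diabetic array (-0.29, not called). Their part in the Fxyd4 difference was not tested.

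Hsd11b2 inactivates corticosterone and so keeps the mineralocorticoid receptor of the distal nephron selective for aldosterone. It gave 6048, 5510 and 4939 in nondiabetic and 2506, 3926 and 5047 in diabetic rats at 10 weeks. Its signals at 20 weeks were 4220, 4442 and 4515 in nondiabetic and 2690, 2676 and 2993 in diabetic rats. It fell over both ages (log2 -0.62 ± 0.13, limma adjusted p = 0.0192), with an overlap at 10 weeks and none at 20 weeks. The call was lost without 10-week nondiabetic replicate 1 (-0.58, limma adjusted p = 0.0506), and also in the fit of all arrays without the intensity trend. At 20 weeks the difference of -0.66 was not called, but it was called without 10-week diabetic replicate 1 (limma adjusted p = 0.0102) or 3 (0.0355), and at -0.69 with both doubted arrays left out (0.0228).

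Of the marker lists of other cell types, 0 of 5 thick ascending limb, 0 of 2 distal convoluted tubule and 0 of 5 smooth muscle markers were called over both ages by limma. Medians of these 3 lists were -0.34 (4 of 5 below 0), -0.09 (1 of 2) and -0.19 (3 of 5). Unadjusted p-values under 0.05 were found for 2, 2 and 1 of them (40%, 100% and 20%, against 17.9% of all probe sets). The 2 distal convoluted tubule markers moved in opposite directions, Slc12a3 at -0.47 and Calb1 at 0.30. In the remaining lists, 2 of 5 intercalated cell markers (Slc26a4 and Atp6v1b1), 1 of 4 podocyte markers (Nphs1) and 1 of 4 endothelial markers (Vwf) were called lower. Called higher were 1 of 4 leukocyte markers (Csf1r) and 1 of 3 inner medulla markers (Aqp4), where 4.47% of all probe sets were called. Aqp4 is also the principal cell marker named above. The other inner medulla markers gave 0.49 (Ptgs1) and -0.45 (Slc14a2), neither of them called. The summed signal of the 3 was 488 to 636 in nondiabetic and 626 to 1076 in diabetic rats at 10 weeks. At 20 weeks the sums were 389 to 517 and 806 to 923. Members of a list did not all move one way: the other intercalated cell markers gave 0.54 (Slc4a1), 0.32 (Foxi1) and 0.05 (Rhcg), none of them called. The list medians were 0.05 for intercalated cells, -0.29 for podocytes (4 of 4 below 0), -0.10 for endothelium (3 of 4 below 0) and 0.34 for leukocytes (3 of 4 above 0), against -0.01 over all probe sets. Correlations between arrays lay between 0.907 and 0.928 on log2 signals of all noncontrol probe sets, and 0 pairs were identical.

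Tested members of higher signal tended to have a smaller SE, with exceptions. Kcnj16 (1370076_at), at a geometric mean of 4137, had an SE of 0.13, and Kcnk5, at 608, had 0.12. The intensity trend of the model draws each SE toward a value set by signal, so part of this relation is built in. The SE of the difference over both ages ran from 0.07 for Kcnj16 (1373991_at) to 0.40 for Kcnk6, with a median of 0.19, against 0.13 over all probe sets tested. The 97 dim probe sets had geometric means from 2.65 to 69.1. In a fit without the signal limit, 0 of them were called by limma, 5 had an unadjusted p under 0.05 (5.15%, against 13% of all probe sets in that fit), and the smallest adjusted p was 0.16, for Kcnip3. In that fit 2.09% of all 31042 probe sets were called. The median SE of these dim members was 0.62, so that small differences in them were not detectable here.

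**Figure D5:**
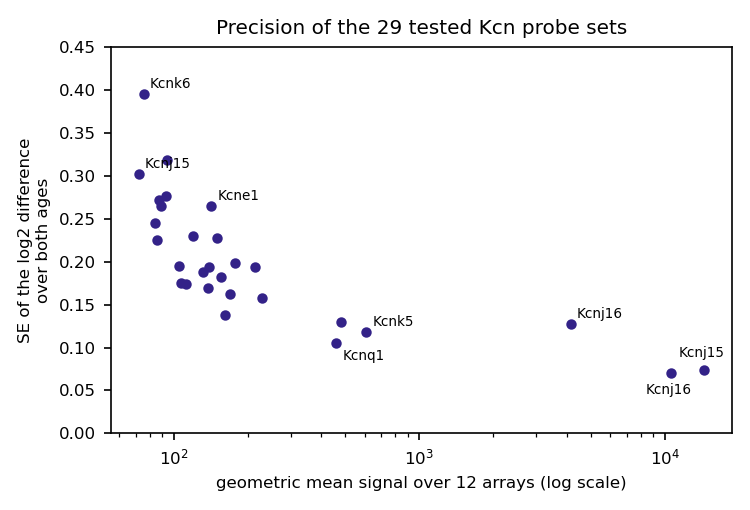
SE of the log2 difference over both ages against the geometric mean signal over 12 arrays (log axis) for the 29 tested Kcn probe sets, 1 point each, with some genes named. The SE ranges from 0.40 for Kcnk6 to 0.07 for Kcnj16 (1373991_at), and the model's intensity trend is part of it.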

How the data were processed

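Transcripts of kidney cortex were measured on 12 single-colour arrays of 1 type, in 4 groups of 3. The authors deposited linear signals per probe set (intensity), made with GCOS per the submitters' processing notes. How probes were summarised is not given in the sources used here. The mean signal of each array, trimmed by 2% at each end, was 500.2, so the arrays had been scaled to a common level and differences are relative to the other transcripts. Of 31099 probe sets, 57 controls were left out. Signals below 1 were set to 1, log2 was taken, and the lowest 40% by mean were left out.

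A model of 4 group means was fitted with limma 3.58.1 in R 4.3.3 (8 residual degrees of freedom, eBayes with an intensity trend) and checked on simulated data. There were 5 two-sided comparisons. Array annotation gave 1 gene for 20826 probe sets, several for 436 and none for 9780. For the other gene lists the brightest probe set of a gene was used. Named were all called Kcn probe sets, those of listed renal channel genes, the 5 smallest p-values of each comparison, the 2 on each side of the signal limit, and called members of the potassium handling list. The members and lists were chosen with earlier results of these data known. Alternatives were quantile normalization, other signal limits, an offset of 16, no trend, the replicate number as a block, the Gapdh ratio as a covariate, and arrays left out. The number of arrays limits the precision.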

Additional observations from a re-analysis of the deposited data

How the results depend on the processing

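Over both ages, 2 Kcn probe sets were called. The count was 1 with the lowest 60% of probe sets left out (7 Kcn probe sets tested, Kcne1 not among them), 1 without the intensity trend, and 1 with both doubted arrays left out. It ranged from 1 to 2 when each array was left out in turn. At 20 weeks, 1 was called. The count was 0 with the lowest 60% left out, 0 without the trend, and from 0 to 2 when each array was left out. The other 3 comparisons gave 0 in every setting run. The fit with a replicate block gave 2 over both ages, 0 at 10 weeks and 1 at 20 weeks. Same-numbered arrays deviated together unevenly, with correlations of 0.0217, 0.149 and 0.13 at 10 weeks and -0.0425, 0.0606 and 0.141 at 20 weeks. Arrays of different numbers gave -0.195 to 0.0712 at 10 weeks and -0.132 to 0.0797 at 20 weeks. These values do not decide whether the numbers pair the samples, and the main model did not pair them. The causes of the lost calls were not tested. Leaving out arrays or probe sets leaves less data, while the fit without the trend used the same data as the main fit. Kcne1 kept its call over both ages in 19 of 19 alternatives that tested it (log2 -1.74 to -1.40), and Kcnk5 kept it in 11 of 20 (log2 -0.62 to -0.45). Fxyd4 kept its call in 20 of 20 and Hsd11b2 in 18 of 20. Of 142 uncalled member differences, 1 passed the threshold in 2707 refits, and the sign turned in 158 refits. The median Kcn difference over both ages was -0.08 under quantile normalization. Probe sets near the limit of 70.9 have uncertain fold sizes.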
